A study of Sus scrofa with 2 samples.

Results

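The receptor IL6ST (gp130) and the genes that act with it in JAK-STAT signalling were examined in the biceps femoris, a hind-limb skeletal muscle, of newborn cloned piglets. The members were 9 named genes, namely IL6ST, IL6R, LIFR, OSMR, JAK1, JAK2, STAT3, SOCS3 and CEBPD, found in the deposited gene tables by gene symbol or by the name of the matched protein. Of the 9 genes, 8 were matched by 11 of the 12535 entries with a read in either library, an entry being 1 gene model of the tables. IL6R, LIFR and OSMR were each matched by a long and a short entry, and SOCS3, the feedback inhibitor of IL6ST, was not analysed here because no entry matched it. The members were chosen by their read counts and ratios in these same libraries, with that difference already known. Their values, and the calls made on them together with all other entries, are therefore a description and not a test of the members.

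IL6ST is the signalling receptor that the cytokines of the interleukin-6 family share. A cytokine binds its own receptor first (IL6R for interleukin-6, LIFR for leukaemia inhibitory factor, OSMR with IL6ST for oncostatin M), the complex with IL6ST brings the kinases JAK1 and JAK2 together, and these phosphorylate STAT3, which enters the nucleus and turns on target genes, among them SOCS3 and the transcription factor CEBPD. In skeletal muscle the pathway is known from the response to exercise, injury and wasting, and in the liver it drives the acute-phase plasma proteins.

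RNA was pooled by group, and 1 library was sequenced from each pool. The abnormal cloned group, labelled as developmental failure, was a pool of 3 piglets with an enlarged tongue, an umbilical defect and difficulty in standing and walking. The normal cloned group was a pool of 4 piglets by the study's methods and of 3 by the sample labels. All piglets were made by somatic cell nuclear transfer and sampled on day 1 after birth. The 3 abnormal piglets and 2 of the normal piglets came from embryonic fibroblasts of the same male large white pig, and the other 2 normal piglets came from ear fibroblasts of another male, so donor animal and phenotype could not be fully told apart. With 1 library per group, no difference below has a replicate check in these data. A test sets the 2 libraries, not the conditions, against each other. The study also measured IL6ST, ATF3 and ALB by Q-PCR. It reported results that matched the sequencing, with fold changes that may differ a little, and did not state whether piglets were measured singly.

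The counts of uniquely mapped reads summed to 6.38 M (abnormal) and 6.52 M (normal). Levels are in RPKM, the reads per kb of transcript and per 1e6 unique reads, with exact 95% Poisson intervals, and ratios have 95% Wilson intervals. Both cover counting error only. A differentially expressed gene (DEG) had a false discovery rate of at most 0.001 in the two-sided Audic-Claverie test over all entries and an absolute log2 ratio of 1 or more. The muscle markers were high in both libraries, ACTA1 (skeletal alpha-actin) at 42257.9 RPKM (abnormal) and 37386.9 RPKM (normal). Mitochondrial transcripts took 36.0% of abnormal and 46.1% of normal reads. Most entries had the higher RPKM in the abnormal library, 67.5% of the 10129 with more than 3 reads in either, and the median log2 ratio of the 7493 entries with at least 10 reads in both was 0.36. In bulk muscle, more cells of a type and more RNA per cell cannot be told apart.

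All 11 member entries had the higher RPKM in the abnormal library, where they held 832 reads against 320 normal reads. By the thresholds above, 6 of the 11 were up-regulated DEGs and 0 were down-regulated, where 12.0% of all entries were up-regulated and 1.45% down-regulated. The 6 were IL6ST, both IL6R entries, the long LIFR entry, JAK1 and JAK2. STAT3, CEBPD, both OSMR entries and the short LIFR entry were not DEGs. Over the 9 entries with a ratio the log2 ratios ran from 0.74 to 3.07 with a median of 1.75. The median was 1.83 with the short IL6R entry set at 3 normal reads. The median over all 9969 entries with a ratio was 0.39. The remaining member entry, the short LIFR entry, had at most 3 reads in each library and is given without a ratio. At least 10 reads in both libraries were counted for 6 of the 11 entries.

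**Figure D1:**
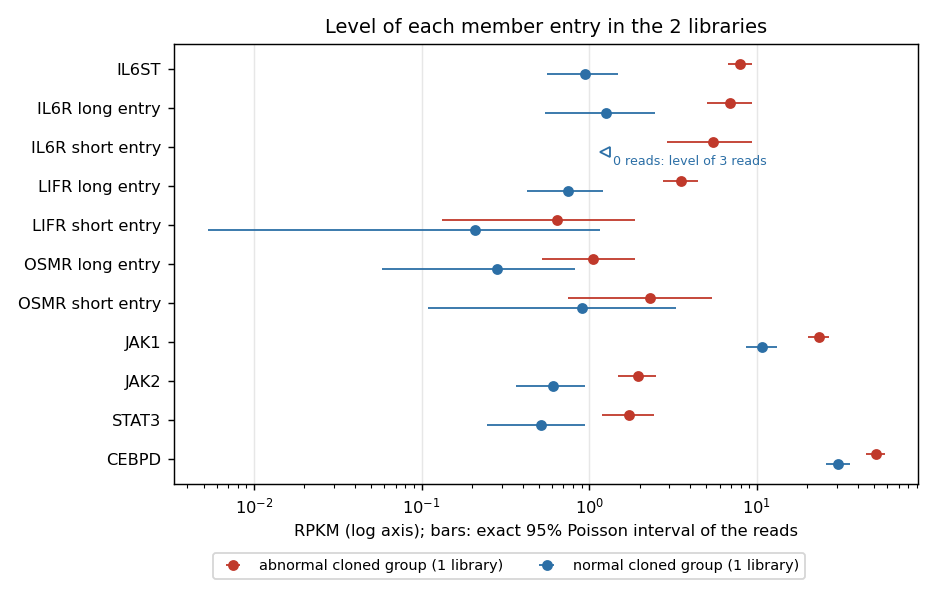
Level of each member entry in RPKM (horizontal log axis) in the abnormal (red) and normal (blue) cloned group, 1 library each, with exact 95% Poisson intervals of the reads as bars; the open triangle marks the level that 3 reads would give for the short IL6R entry, which had 0 reads in the normal library. The red point lies to the right for all 11 entries, and the intervals of IL6ST, 7.93 and 0.943 RPKM, are far apart while those of both OSMR entries overlap.

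IL6ST, the shared receptor, had 148 abnormal and 18 normal reads. Its level was 7.93 RPKM (95% interval 6.70 to 9.31) in the abnormal and 0.943 RPKM (0.559 to 1.49) in the normal cloned group. The abnormal level was thus far above the normal one and the intervals did not overlap. The ratio was 8.40-fold (95% interval 5.17 to 13.6), a log2 ratio of 3.07 (2.37 to 3.77), which is the highest of the member entries. Of the 4952 entries with at least 100 reads over both libraries, 32 had a higher log2 ratio, or 0.646%. Reads covered 74.35% (abnormal) and 23.98% (normal) of the 2928-base transcript. Within its own library, IL6ST stood above 64.5% of the detected entries in RPKM (abnormal) and above 30.9% (normal). The gene lies on the minus strand of chromosome 16 of the Sscrofa9 build, from 32637552 to 32684001. IL6ST was an up-regulated DEG under every other setting tried except the edgeR exact test when a biological variation of 0.4 was assumed.

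The genes most like IL6ST, by the difference of log2 ratios over the 2 libraries among 4497 entries with a symbol and at least 100 reads, were CPEB4, CDC14A, ABHD2, ATF3 and ZDHHC9. CPEB4, a binding protein of the polyadenylation element in mRNA, had 156 and 19 reads, at a log2 ratio of 3.07. CDC14A, a phosphatase, had 92 and 11 reads, and ABHD2, an abhydrolase domain protein, had 121 and 15. ATF3, a stress-induced transcription factor, was far more abundant than IL6ST, at 152 and 18.8 RPKM, with a log2 ratio of 3.02. ZDHHC9, a palmitoyltransferase, had 128 and 15 reads, at a log2 ratio of 3.12. Likeness over 2 libraries means only that the ratios were close.

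The receptor subunit for interleukin-6, IL6R, was matched by a pair of entries on chromosome 4. The long entry (ENSSSCG00000006548, 99393597 to 99432017, minus strand, 975 bases) had 43 abnormal and 8 normal reads, 6.92 and 1.26 RPKM, the latter with an interval of 0.544 to 2.48 that did not reach that of the former. The ratio was 5.49-fold, a log2 ratio of 2.46 (1.39 to 3.52). The short entry (ENSSSCG00000006549, 99428936 to 99431037, plus strand, 372 bases) lies inside the span of the long one on the opposite strand. It had 13 abnormal reads, 5.48 RPKM (2.92 to 9.37), and 0 normal reads. With 3 reads taken as the floor, or 1.24 RPKM, its abnormal level was 4.43 times that floor. This value leaves out the counting error of the 13 abnormal reads, so it is no lower limit of the ratio. Both entries were higher in the abnormal library, but the library kit did not mark strand, so reads from the overlap cannot be assigned to either strand and the pair is not 2 independent measurements. The long entry was no longer a DEG with a minimum of 10 reads in both libraries, since the normal library held 8, and the short entry was lost with median-ratio or TMM scaling and with totals that left out mitochondrial transcripts.

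LIFR, the receptor for leukaemia inhibitory factor, had 74 abnormal and 16 normal reads on its long entry (gene 397451, chromosome 16, 21285935 to 21349971, minus strand, 3294 bases). The levels were 3.52 RPKM (2.77 to 4.42) and 0.745 RPKM (0.426 to 1.21), again without overlap of the intervals. The ratio was 4.73-fold, a log2 ratio of 2.24 (1.47 to 3.01), and the long entry remained a DEG under each scaling tried. The short entry (LOC100518520, chromosome 16, 21168123 to 21174998, plus strand, 736 bases) had 3 reads and 1 read, too few for a ratio at this depth.

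OSMR, the subunit that binds oncostatin M together with IL6ST, neighbours LIFR on chromosome 16 and had few reads. Its long entry (21458290 to 21503302, minus strand) had 11 and 3 reads, 1.05 and 0.280 RPKM, a ratio of 3.75-fold with an interval of 1.13 to 12.5. Its short entry (21550545 to 21550883, plus strand) had 5 and 2 reads, 2.31 and 0.905 RPKM, a ratio of 2.55-fold with an interval of 0.572 to 11.4. A difference in OSMR was not detectable at this depth under the thresholds used.

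The kinase JAK1 was the second most abundant member. With 191 abnormal and 89 normal reads, it stood at 23.5 RPKM (20.3 to 27.1) and 10.7 RPKM (8.61 to 13.2). The ratio was 2.19-fold, a log2 ratio of 1.13 (0.77 to 1.49), with intervals of the levels apart. JAK1 lies on chromosome 6 from 103915378 to 104010734 on the plus strand. Being near the threshold of 1, it was no longer a DEG when the log2 ratio was taken relative to the median entry (0.77), after TMM scaling (0.74), without the mitochondrial transcripts (0.89) or with a correction for transcript length (0.89).

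JAK2, the second kinase, was less abundant than JAK1, which had 17.7 times its RPKM in the normal library. It had 60 and 19 reads, 1.96 RPKM (1.49 to 2.52) in the abnormal and 0.606 RPKM (0.365 to 0.946) in the normal cloned group. The ratio was 3.23-fold, a log2 ratio of 1.69 (0.95 to 2.43), larger than that of JAK1 though the intervals overlap. The gene lies on the minus strand of chromosome 1 from 226776007 to 227058933. Its 4812-base transcript is the longest among the members, and entries of that length had a median log2 ratio of 0.76. With that median subtracted JAK2 stood at 0.93 and was not a DEG, nor was it one with median-ratio scaling (1.33), TMM scaling (1.30) or a pseudocount of 1 RPKM (0.88).

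STAT3, the transcription factor that the receptor complex activates, had 33 abnormal and 10 normal reads. Its level was 1.74 RPKM (1.19 to 2.44) in the abnormal and 0.515 RPKM (0.247 to 0.946) in the normal cloned group, so the intervals did not overlap. The ratio was 3.37-fold, a log2 ratio of 1.75 (0.75 to 2.75). STAT3 was not a DEG at a false discovery rate of 0.001 and was one at 0.05. The gene lies on the minus strand of chromosome 12 from 18246329 to 18310664. Its reads were less spread along the 2982-base transcript than those of most entries. They covered 17.51% of it (abnormal) and 9.99% (normal), where even placement of 49-base reads would cover 41.9% and 15.2%. The observed coverage was thus 41.8% of the even value in the abnormal library, against a median of 87.2% for 1385 entries of at least 1000 bases with 20 to 50 reads, of which 104 were as low as STAT3 or lower. The RPKM of STAT3 therefore rests on reads from a minority of its length.

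CEBPD, a C/EBP transcription factor induced through STAT3 in the acute-phase response, was the most abundant member. It is listed as LOC100153946 on the plus strand of chromosome 4, from 82893775 to 82894545. It had 251 and 154 reads, 51.0 RPKM (44.9 to 57.8) and 30.7 RPKM (26.0 to 35.9). The ratio was 1.67-fold, a log2 ratio of 0.74 (0.45 to 1.02), the lowest of the members and under the threshold of a DEG. Entries of its length (771 bases) had a median log2 ratio of 0.01.

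The order of the levels differed between the libraries. In both, CEBPD was highest and JAK1 second, with intervals apart from each other and from the next entry. Next in the abnormal library came IL6ST, just ahead of the long IL6R entry, and these neighbours did not differ beyond their intervals. Among entries with more than 3 reads, below JAK1 in the normal library, the long IL6R entry, IL6ST, LIFR, JAK2 and STAT3 followed in that order, each overlapping the one before. The RPKM of IL6ST was 2.25 times that of the long LIFR entry among abnormal reads and 1.27 times among normal reads. JAK1 had 2.97 and 11.4 times the RPKM of IL6ST, respectively.

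**Figure D2:**
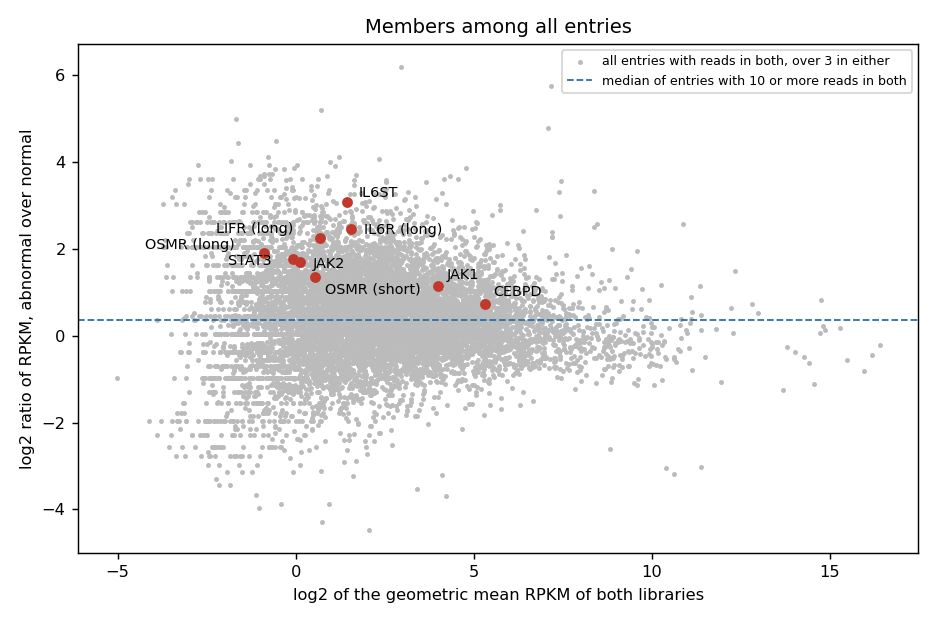
Log2 ratio of RPKM, abnormal over normal (vertical axis), against the log2 of the geometric mean RPKM of both libraries (horizontal axis), for all entries with reads in both libraries and more than 3 in either (grey) and the 9 members with a ratio (red); the dashed line is the median of 0.36. IL6ST is the member farthest from that line, and JAK1 and CEBPD, the most abundant members, are the closest to it together with the short OSMR entry.

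The ratios depended on how the libraries were scaled and on transcript length, though none of the 9 changed sign. Setting the median entry to 0 lowered every log2 ratio by 0.36, TMM scaling by 0.39 and leaving out the mitochondrial reads by 0.25. The members then ran from 0.38 to 2.71 with a median of 1.39 after median-ratio scaling, where 3 of 11 remained DEGs (IL6ST, the long IL6R entry and the long LIFR entry), against 6.48% of all entries. Longer transcripts had higher ratios across the whole table, with a median log2 ratio of 0.10 in 1502 entries under 1000 bases and 0.66 in 860 entries of 3000 to 5000 bases. After subtraction of the median of entries of similar length, the members ran from 0.72 to 2.56 with a median of 1.26. With the false discovery rates left unchanged, 4 were DEGs, against 7.39% of all entries. The 4 included the short IL6R entry, whose ratio was not corrected because it had 0 normal reads. The part of length and of the mitochondrial share in the members' ratios was not tested. With the edgeR exact test and an assumed biological variation of 0.2, IL6ST alone of the members was a DEG, against 1.94% of all entries.

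**Figure D3:**
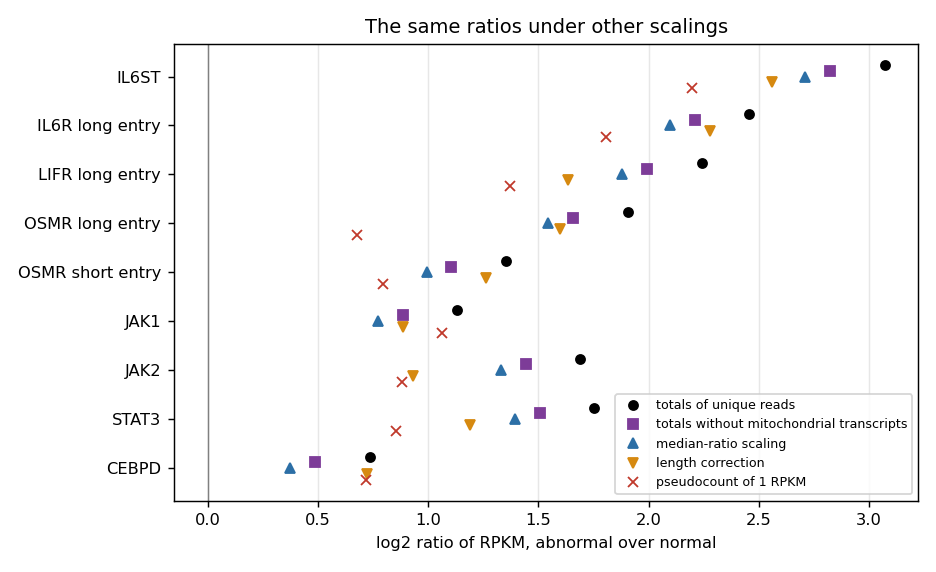
Log2 ratio of RPKM, abnormal over normal (horizontal axis), of the 9 member entries with a ratio, under the totals of unique reads (black), totals without mitochondrial transcripts (purple), median-ratio scaling (blue), correction for transcript length (orange) and a pseudocount of 1 RPKM (red crosses). All points lie above 0, IL6ST leads under each setting, and JAK2 moves from 1.69 to 0.93 with the length correction while CEBPD lies between 0.38 and 0.74.

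The other genes of the pathway were taken from 10 lists, written with earlier results of these data known, of which 72 of 98 genes were matched by 79 entries. Up-regulated DEGs were 11 of the 79 and down-regulated DEGs were 5, and 63 were not called, where 12.0% of all entries were up-regulated and 1.45% down-regulated, so the up-regulated share was near the background. The median log2 ratio over the 67 with a ratio was 0.26, below the 0.39 of all entries. After median-ratio scaling 4 of the 11 remained DEGs, namely IL13RA1, SHC1, MAFF and ITIH4, where 6.48% of all entries were up-regulated under that scaling.

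The cytokines that act through IL6ST were scarce in the muscle. Of 10 ligands 7 were matched, and 0 of the 7 was a DEG. Interleukin-6 itself had 0 abnormal reads and 1 normal read, and LIF had 1 and 0. The most reads were counted for EBI3, a subunit shared by interleukin-27 and interleukin-35, with 12 and 7 reads, and CTF1 (cardiotrophin-1) with 9 in each library.

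Of the 3 other ligand-binding receptors that pair with IL6ST, 0 were DEGs and 2 had the lower RPKM in the abnormal library. IL11RA, the receptor for interleukin-11, had 272 and 354 reads, 23.4 and 29.8 RPKM, a log2 ratio of -0.35 (-0.58 to -0.12), and it was not a DEG. IL11RA thus had 2.95 (abnormal) and 31.6 (normal) times the RPKM of IL6ST. IL27RA had 20 and 28 reads and CNTFR, the receptor for ciliary neurotrophic factor, had 6 and 4.

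Among 9 entries for other JAK-coupled receptors, 2 were up-regulated DEGs, where 12.0% of all entries were. The RPKM was higher in the abnormal library for 4 of the 9 and lower for 5. IL13RA1, which with IL4R forms a receptor for interleukin-4 and interleukin-13, had 781 and 175 reads, 74.4 and 16.3 RPKM, a ratio of 4.56-fold and a log2 ratio of 2.19 (1.95 to 2.43). IL13RA1 was also a DEG after median-ratio scaling and in the edgeR test at 0.2. GHR, the growth hormone receptor, had 238 and 100 reads, a log2 ratio of 1.28 (0.95 to 1.62), and was lost as a DEG after median-ratio scaling. IFNGR1, a receptor for interferon-gamma, had nearly equal levels, 12.5 RPKM in each library.

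The remaining kinases and STAT factors were not called. TYK2, the JAK family kinase that also binds IL6ST, had 80 and 68 reads, at a log2 ratio of 0.27 (-0.20 to 0.73), and JAK3 had 3 reads in each library. Of 9 entries for the other STAT factors 0 were DEGs, with a median log2 ratio of 0.12. STAT2, a factor of the type I interferon response, had 55 and 58 reads on its longer entry, a log2 ratio of -0.05 (-0.57 to 0.48).

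Of 16 listed inhibitors of the pathway 10 were matched. SOCS1 and SOCS2, like SOCS3, were not, so nothing is said of them. The matched inhibitors were not called either, with 0 DEGs of 10 entries and a median log2 ratio of 0.68. PIAS1, which binds STAT factors, had the most reads, 157 and 140, at a log2 ratio of 0.20 (-0.13 to 0.52), followed by PIAS3, which binds STAT3, with 63 and 56. CISH, a SOCS family member induced by STAT5, had 62 and 53 reads on a shorter transcript and the highest level of the list, 18.0 and 15.1 RPKM. The log2 ratios of SOCS5, SOCS6 and SOCS7 lay between 0.87 and 0.98, with 54 and 28, 32 and 17, and 25 and 14 reads.

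Of 8 listed adaptors that link IL6ST to the MAPK and PI3K cascades 6 were matched, and PTPN11 and PIK3CA were not. The matched adaptors were higher in the abnormal library in 6 of 6 entries, and 4 of them were up-regulated DEGs. Of all entries above 3 reads 67.5% had the higher RPKM there, and 12.0% of all entries were up-regulated. PIK3R1, the regulatory subunit of PI3K, had 528 and 213 reads, 52.4 and 20.7 RPKM, a log2 ratio of 1.34 (1.11 to 1.57). SHC1, an adaptor of receptor tyrosine signalling, had 137 and 52 reads, at a log2 ratio of 1.43 (0.97 to 1.89). SOS1, an exchange factor for Ras, and GAB1, a docking protein, each had a log2 ratio of 1.28. GRB2, which carries SOS1 to the receptor, had 346 and 235 reads with a log2 ratio of 0.59 and was not a DEG. Of the 4, SHC1 alone remained a DEG after median-ratio scaling.

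**Figure D4:**
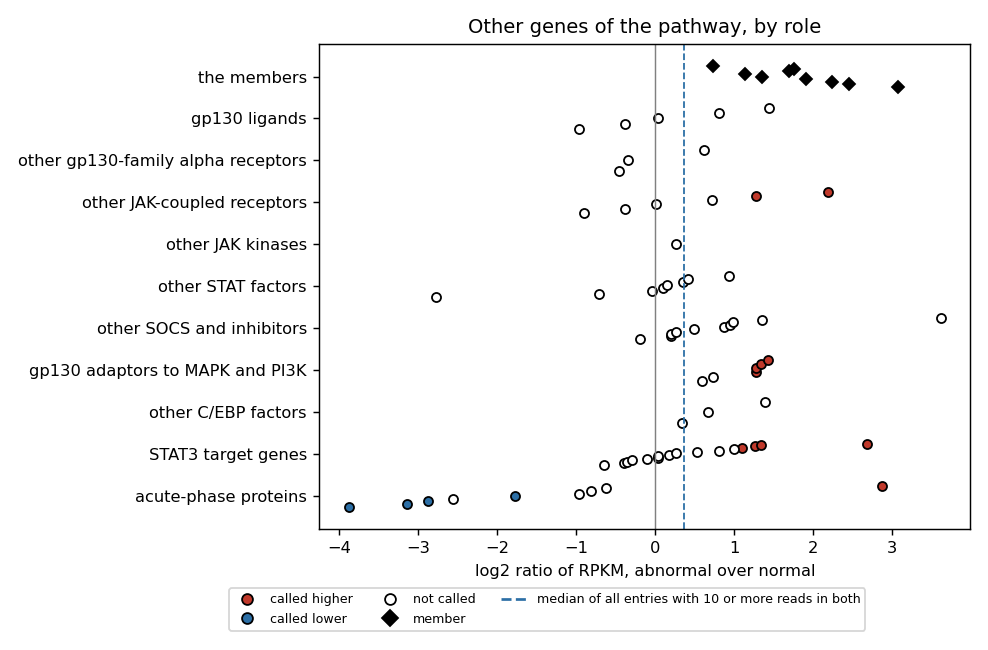
Log2 ratio of RPKM, abnormal over normal (horizontal axis), of the members (diamonds) and of the other pathway entries with a ratio (circles), by role; red circles are up-regulated DEGs, blue circles down-regulated DEGs and white circles entries not called, and FGA and CEBPA, which had 0 reads in the abnormal library, are not drawn. The members, which were chosen with these ratios known, lie to the right of the dashed median of 0.36, so their position is no test. The ligands, the other alpha receptors and the other STAT factors lie on both sides of the dashed line. Their list medians of 0.03, -0.35 and 0.12 are below it. The blue circles lie among the acute-phase proteins.

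Downstream, 4 of 17 entries for STAT3 target genes were up-regulated DEGs and 0 were down-regulated, against 12.0% and 1.45% of all entries, with a median log2 ratio of 0.22. MAFF, a small Maf transcription factor, had 69 and 11 reads, a ratio of 6.41-fold and a log2 ratio of 2.68 (1.78 to 3.58). BCL6, a transcriptional repressor, had 744 and 317 reads, at a log2 ratio of 1.26 (1.07 to 1.45). FOS and MYC, which many signals besides STAT3 induce, had log2 ratios of 1.34 and 1.10. The target with the most reads, MCL1, a survival factor of the BCL2 family, had 1685 and 985 reads with a log2 ratio of 0.81 and was not a DEG, and TIMP1, an inhibitor of metalloproteinases, had 237 and 380 reads with a log2 ratio of -0.65. MAFF remained a DEG after median-ratio scaling, and BCL6, FOS and MYC did not. Of the other C/EBP factors, 0 of 4 entries were DEGs. The most abundant of them was CEBPZ with 769 and 495 reads, while CEBPB, the relative of CEBPD in acute-phase control, had 77 and 62.

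The acute-phase plasma proteins, products of the pathway in liver, had the lower RPKM in the abnormal library in 11 of 12 entries. Only 10 of the 12 had more than 3 reads in either library. Of all entries above 3 reads, 67.5% had the higher RPKM in the abnormal library. Of the 12, 5 were down-regulated DEGs and 1 was up-regulated, where 1.45% of all entries were down-regulated and 12.0% up-regulated. The median log2 ratio was -1.78 over the 9 with a ratio, or -2.17 with FGA set at 3 abnormal reads. FGA, a fibrinogen chain, had 0 abnormal and 19 normal reads. Its normal level was 6.20 times that of 3 abnormal reads, with the counting error of the 19 left out. FGB, another fibrinogen chain, had 4 and 36 reads, ORM1 (orosomucoid) had 6 and 45, A2M (alpha-2-macroglobulin) had 12 and 42, and SERPINA3 (antichymotrypsin) had 2 and 30. ITIH4, an inter-alpha-trypsin inhibitor chain, was the exception, with 207 and 29 reads, 14.4 and 1.98 RPKM, a log2 ratio of 2.87 (2.31 to 3.42). CRP (C-reactive protein) had 81 and 127 reads and HP (haptoglobin) had 24 and 43, and neither was a DEG. Of 5 matched hepatocyte markers 4 had the lower RPKM in the abnormal library and 1 the higher. The down-regulated DEGs were 2 of the 5, against 1.45% of all entries, ALB (albumin) with 12 and 271 reads and AHSG (fetuin-A) with 0 and 34. APOA1 had 298 and 281 reads, and APOB had 0 and 4. The summed level of the hepatocyte list was 41.5 RPKM (abnormal) and 62.1 RPKM (normal), of which APOA1 alone held 40.3 and 37.2. The part of the hepatocyte markers in the acute-phase result was not tested.

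Markers of cells that can carry the members besides muscle fibres did not pass the test in the abnormal library's favour. The macrophage list (7 of 8 genes matched) summed to 16.6 RPKM (abnormal) and 21.0 RPKM (normal) with 0 DEGs, and the other leukocyte list (5 of 8 matched) to 4.78 and 6.95 RPKM with 0 DEGs. PTPRC, the pan-leukocyte marker CD45, had 5 and 22 reads. The endothelial list (6 of 7 matched) summed to 68.1 and 57.0 RPKM, and the fibroblast list to 3005 and 3358 RPKM, each with 0 DEGs. The sums rest on the most abundant genes. By entry, the RPKM was higher in the abnormal library for 3 macrophage, 3 endothelial and 1 fibroblast entries, and lower for 4, 3 and 6. KDR (endothelial) had a log2 ratio of 0.75 (0.48 to 1.01) and PDGFRA (fibroblast) of 0.86 (0.30 to 1.41). Whether the share of any cell type differed was not tested. The adipocyte markers had at most 3 reads each, and the satellite cell list summed to 5.31 and 3.56 RPKM with 0 DEGs. The erythroid list summed to 1822 and 2723 RPKM with 0 DEGs. The globins that make up most of it were lower in the abnormal library in RPKM, while ALAS2, an enzyme of heme synthesis, had 86 and 84 reads and SLC4A1, an anion exchanger of red cells, had 21 and 5. Within the skeletal muscle list, summing to 45382.4 and 39639.6 RPKM, 1 short TTN (titin) entry of 7 entries was a down-regulated DEG.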

How the data were processed

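RNA-seq of biceps femoris muscle was analysed from 2 libraries, 1 from pooled RNA of abnormal and 1 from pooled RNA of normal cloned piglets, grouped by their labels. The authors filtered the reads, mapped them to Sscrofa9 transcripts with SOAPaligner/soap2 (at most 2 mismatches) and deposited for each transcript the count of unique reads without normalization, the RPKM and the percent of its length covered. The deposited RPKM was recomputed from counts and lengths to within a relative difference of 3.3e-08. Tables were joined on the gene identifier, and a missing entry was set to 0 reads. The totals were 6377570 and 6515880 reads, so that 3 reads, the floor used, correspond to 0.470 and 0.460 RPM (reads per 1e6 reads).

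The authors' thresholds were followed. The two-sided Audic-Claverie test on the counts was adjusted by Benjamini-Hochberg over 12535 entries, and the log2 ratio used RPKM with 0 set to 0.001. The alternatives were median-ratio and TMM scaling, totals without mitochondrial transcripts, at least 10 reads in each library, a pseudocount of 1 RPKM, the Fisher exact test, the edgeR exact test on the counts assuming a biological variation of 0.2 or 0.4, an FDR of 0.05, and, added after the data were seen, subtraction of the running median of the 501 entries nearest in length. The test was checked on simulated data. Even coverage was computed for 49-base reads placed at random. The members, gene lists and marker lists were chosen with earlier results of these data known. Named besides the members were, of each list, the DEGs (at most the 6 with the most reads), otherwise the entry or 2 entries with the most reads, and the 5 entries closest to IL6ST in log2 ratio. Other genes named were chosen after their values were seen. Entries whose symbol and protein names conflicted were left out of the lists. R 4.3.3 (edgeR 4.0.16) and Python 3.11.15 (matplotlib 3.10.9, scipy 1.17.1, pandas 2.3.3, numpy 2.4.6) were used. The values of 1 listed gene are not reported here.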

Additional observations from a re-analysis of the deposited data

How the results depend on the processing

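Over all entries 1510 were up-regulated and 182 down-regulated, and among the other pathway genes 11 and 5. These counts moved by over 1.5 times to 812 and 498 over all entries with 4 pathway genes up-regulated after median-ratio scaling, to 751 and 548 with 4 after TMM scaling, to 986 and 366 without the mitochondrial transcripts, and to 926 and 313 with 5 after the correction for length. A minimum of 10 reads in both libraries left 1 pathway gene down-regulated, and an FDR of 0.05 gave 342 down-regulated entries. The edgeR exact test gave 243 and 20 entries, with 3 and 0 pathway genes, at an assumed variation of 0.2, and 2 and 1 entries, with 0 and 0 pathway genes, at 0.4. Of the members, 6 were up-regulated, and 3, 3, 4 and 4 after median-ratio, TMM, no-mitochondria and length settings, 1 and 0 with edgeR at 0.2 and 0.4, and 7 at an FDR of 0.05. The causes were not tested, except that the filter and edgeR settings demand more reads or a larger ratio by construction. No log2 ratio of a member changed sign, and 44 of the 51 values under another setting lay within the 95% interval of counting error. The 44 include 6 values from the minimum of 10 reads, which leaves a ratio unchanged by construction. Entries with few reads have the widest intervals, so the count does not measure how stable the ratios are. No paired analysis was possible because each group had 1 library. Depth limited the members with few reads, OSMR and the short LIFR entry above all.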

Other observations

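Over all entries 12.0% were up-regulated and 1.45% down-regulated DEGs, which is the background for the counts of neighbours. Within 1000 kb of IL6ST 6 other entries were detected and 0 of them were DEGs, with a median log2 ratio of 0.72 and a highest value of 1.35. Around IL6R 51 entries were detected, of which 3 were up-regulated and 3 down-regulated DEGs, with a median of -0.05, and 1 of the 3 up-regulated was SHC1, the adaptor of the same pathway. Around JAK2, 4 of 9 entries were up-regulated DEGs, RIC1 with 148 and 27 reads and a log2 ratio of 2.49, CDC37L1 with 1.51, RANBP6 with 1.47 and AK3L1 with 1.46. Around JAK1, 0 of 4 entries were DEGs, with a median of 0.31. Member entries were not counted as neighbours in any of these windows. LIFR and OSMR lie within 1000 kb of each other, and the long LIFR entry was itself an up-regulated DEG. Around LIFR on chromosome 16, 1 of 6 non-member entries was an up-regulated DEG, and around OSMR 1 of 4, with a median of 0.31 in each case. That DEG was RICTOR, a subunit of the mTORC2 kinase complex (21565074 to 21701660). RICTOR had 96 and 23 reads, at a log2 ratio of 2.09, where LIFR had 2.24. Around CEBPD, 1 of 6 entries was an up-regulated DEG, and the median was -0.03. This was PRKDC, the catalytic subunit of DNA-dependent protein kinase, with 118 and 47 reads and a log2 ratio of 1.36, above the 0.74 of CEBPD. Around STAT3, 6 of 44 entries were up-regulated, near the background share, and 1 was a down-regulated DEG.

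PTPN1, a phosphatase that acts on JAK2, had 12 abnormal reads and 1 normal read, a log2 ratio of 3.62 (95% interval 1.03 to 6.20), and it was not a DEG.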
